A study of Mus musculus with 10 samples.

Results

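The TNF and TNF receptor superfamily was examined in cultured adipocyte precursors (APs), the cells of white fat that can become adipocytes. Its members were taken as every gene whose symbol is Tnf or begins with Tnfsf, the ligands, or Tnfrsf, the receptors. This gave 33 genes, 13 ligands and 20 receptors, of 18384 genes listed in the mRNA-seq data. The APs came from the subcutaneous white adipose tissue of C57BL/6J mice. They were isolated on magnetic beads by selection against CD45 and CD31 and then for SCA-1. Control cells grew in DMEM F12 with fetal bovine serum, and treated cells received IL-4, a type 2 cytokine, from the day after seeding. mRNA was sequenced from 3 control libraries, numbered 1 to 3, and 3 IL-4 libraries, numbered 4 to 6, harvested on day 4. Nothing states that the libraries of a group came from separate animals or cultures, so that the p-values measure only the spread between these libraries.

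Ligands of this family are mostly membrane proteins that act as trimers, some of them after being cut from the cell surface. Their receptors recruit TRAF adaptors, which lead to NF-kappaB and MAP kinase signalling, or death domain adaptors, which lead to apoptosis or necroptosis, while decoy receptors bind a ligand without passing on the signal. In adipose tissue TNF, made largely by macrophages, is known as an inhibitor of adipogenesis and of insulin signalling.

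Each library held between 28526782 and 29057787 expected counts, the reads that the authors' counting tool assigned to genes. Control replicate 3 carried a few reads of genes that IL-4 induces strongly. Over 11 such genes, among them Chil3, Retnla and Mgl2, these came to at most 0.857% of the IL-4 mean. With that library left out, 8 members were higher and 9 lower with IL-4, against 9 and 9 with it. The summed FPKM (reads scaled by transcript length and library depth) of 10 AP markers was 4181 to 4496 in control and 4718 to 5022 in IL-4 libraries. Most of that sum came from Col1a1, with means of 3307 and 3690 FPKM. Of these markers 6 rose, with log2 fold changes above 1 in Pi16 (4.02), Cd34 (3.35) and Ly6a (1.20), the gene of SCA-1. The 2 that fell were Pdgfrb (-0.66) and Lum (-0.61). The 15 macrophage markers summed to 3660 to 4716 FPKM in control and 1391 to 1881 in IL-4 libraries, and Lyz2 had the highest mean FPKM of them in both groups. Of these, 14 fell, among them Cx3cr1 from 1484, 1725 and 1853 to 3, 3 and 5 expected counts, and Ptprc, which encodes CD45, from 2506, 2796 and 2798 to 1216, 1263 and 1195. The largest falls on the log2 scale were those of Cx3cr1 (-8.65), Aif1 (-4.43), Fcgr1 (-2.91), Cd14 (-2.59), Lyz2 (-1.64) and Csf1r (-1.05). The remaining marker, Cd68, had an adjusted p of 0.0572, and DESeq2 called it higher. Macrophage markers were thus abundant in libraries labelled as APs, in both groups. The markers of lymphocytes and NK cells summed to at most 5.04 FPKM, with Cd3e and Cd3d without a read, those of mast cells to at most 0.92, with Fcer1a without a read, and those of neutrophils to at most 1.62. In the first of these lists Cd4 fell by 2.33 and Il7r rose by 1.36 on the log2 scale. The dendritic cell markers summed to 2.81 to 3.38 FPKM in control and 25.5 to 27.7 in IL-4 libraries. Itgax, which macrophages also express, went from 1.61 to 25.0 FPKM (log2 fold change 4.13), while Flt3 had 1 read in all libraries together. For endothelial markers the sums were 17.3 to 18.2 and 17.3 to 19.1 FPKM, with 2 of 9 higher and 4 lower, beyond a log2 fold change of 1 in Vwf (3.08), Cdh5 (-1.60), Emcn (-1.49) and Tie1 (-1.16). Genes of mature adipocytes summed to 191.7 to 201.5 and 501.5 to 582.4 FPKM, nearly all from Lpl (log2 fold change 1.72) and Fabp4 (1.10). The others were near or at 0, with Lep and Cidec without a read and Plin1 at most 2 reads in a library. Adipoq had 0, 0 and 3 reads in control and 13, 9 and 10 in IL-4 libraries, too few to be tested. In such bulk samples fewer cells of a type and less RNA per cell cannot be told apart, and the part of macrophages in the family's changes was not tested.

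IL-4 was accompanied by changes in opposite directions within the family. Of the 33 members, 28 had enough reads to be tested. In edgeR's quasi-likelihood test at a Benjamini-Hochberg adjusted p under 0.05 over all genes, 9 were higher and 9 lower with IL-4, and 10 did not pass. Among all 14009 genes tested, 37.4% passed, 19.0% higher and 18.4% lower, and of the members 64.3% passed. Beyond a log2 fold change of 1, 4 members were upregulated and 6 downregulated, 35.7% of those tested, against 11.0% of all genes, 5.77% up and 5.26% down. The ligands held most of the large changes, with 10 of 12 passing and 7 beyond a log2 fold change of 1, against 8 of 16 and 3 for the receptors. Their median absolute log2 fold change was 1.50 in ligands and 0.39 in receptors, against 0.22 over all genes, while the signed median of all members was 0.0098, against 0.0026. In normalized counts, 19 of the 28 members had no overlap between the groups, as had 50.4% of all genes. The calls of small changes depended on the scaling. With library totals in place of TMM the median of all genes moved to -0.17, higher calls fell from 50.8% to 25.6% of all calls, and the family had 6 members higher and 10 lower. Of the 18 calls, 15 held in all 14 alternatives run, and the other 3, Tnfrsf1a, Tnfrsf23 and Tnfsf12, are marked where they are described.

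**Figure D1:**
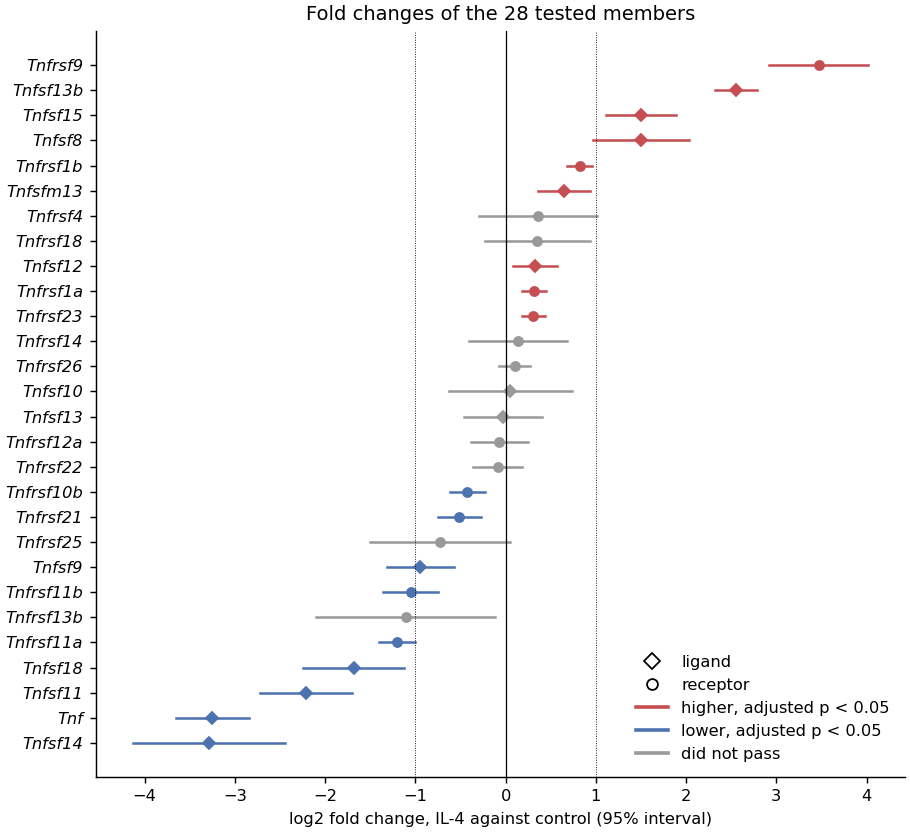
Fitted log2 fold change of the 28 tested members (IL-4 against control, horizontal axis) with 95% intervals, diamonds for ligands and circles for receptors. The changes run from -3.29 for Tnfsf14 to 3.47 for Tnfrsf9, with 9 members lower (blue), 9 higher (red) and 10 that did not pass (grey), and dotted lines stand at -1 and 1.

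The summed FPKM of the family changed little while its makeup changed. The ligands summed to 49.2 to 56.7 FPKM in control and 49.1 to 59.9 in IL-4 libraries, and the receptors to 232 to 247 and 235 to 260, ranges that overlap. FPKM carry no TMM factor, which was 1.05 to 1.07 in control and 0.93 to 0.96 in IL-4 libraries. On the TMM scale the IL-4 sums would stand higher against the control sums, a comparison that was not made. Tnfsf12 gave 48.7% to 56.7% of the ligand sum and Tnfrsf1a 45.1% to 49.6% of the receptor sum in the 6 libraries. In control libraries the mean FPKM, a level per transcript length, was highest for Tnfrsf1a (110), followed by Tnfrsf12a (51.1), Tnfsf12 (25.9), Tnfrsf1b (18.6) and Tnfrsf23 (16.3). Tnfsf13b was the sixth ligand in the controls at 1.92 FPKM and the second at 9.97 FPKM with IL-4, next to Tnfsf12, whereas Tnf went from the third ligand, at 5.01, to 0.46.

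**Figure D2:**
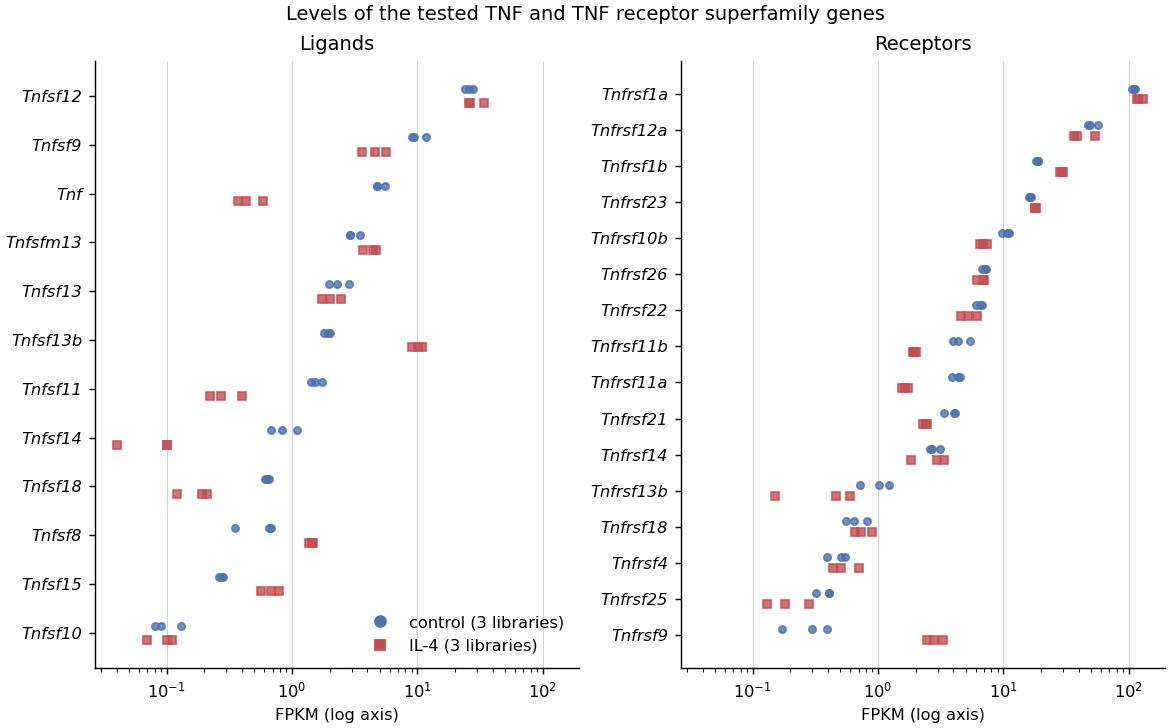
FPKM of each tested member in each library on a log axis, ordered by the control mean, with blue circles for the 3 control and red squares for the 3 IL-4 libraries. On this scale, without a TMM factor, the most abundant genes, Tnfrsf1a, Tnfrsf12a and Tnfsf12, differ little between groups. The widest gaps are those of the ligands Tnfsf14, Tnf, Tnfsf11 and Tnfsf13b and of the receptor Tnfrsf9. Other genes are apart as well, among them the receptors Tnfrsf11a (mean 4.25 against 1.64 FPKM) and Tnfrsf11b (4.56 against 1.95).

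Tnf, the founding ligand (Entrez gene 21926, GRCm38 chr17:35199367-35202007, minus strand), had expected counts of 214, 215 and 252 among the controls, against 27, 17 and 20 after IL-4. All IL-4 values lay far below the controls. Normalized counts fell from 215 ± 18.3 to 22.6 ± 5.62 (SD, n = 3 each). The fitted log2 fold change was -3.25 (SE 0.17, adjusted p = 4.16e-06), or 9.51-fold. The 250 bases before its RefSeq start, shown because Tnf had one of the largest falls, hold a TATA box (capitals) 29 bases upstream:

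Tnf, chr17:35202008-35202257, minus strand: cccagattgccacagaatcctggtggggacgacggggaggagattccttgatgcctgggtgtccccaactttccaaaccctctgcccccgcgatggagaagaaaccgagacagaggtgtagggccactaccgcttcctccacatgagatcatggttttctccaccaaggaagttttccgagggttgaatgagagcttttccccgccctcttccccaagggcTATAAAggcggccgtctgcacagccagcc

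The letters TATAAA, searched on the gene's strand from 250 bases before to 50 after a start, were found for 3 of the 26 members with a RefSeq promoter, Tnf, Tnfrsf17 and Tnfsf18, and for 9.77% of 27025 genes.

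The receptors of TNF were higher with IL-4, Tnfrsf1a under some scalings only. Tnfrsf1b, which encodes TNFR2, the receptor without a death domain that responds best to membrane-bound TNF, had 2507, 2608 and 2617 expected counts in control and 4121, 4186 and 3965 in IL-4 cultures. It rose by 0.82 on the log2 scale (SE 0.06, adjusted p = 2.07e-05), from 18.6 to 29.1 FPKM. Tnfrsf1a, which encodes TNFR1, the death domain receptor found on most cells, had 6638, 6383 and 6885 against 7127, 7230 and 7961 expected counts. Its log2 fold change was 0.32 (SE 0.06, adjusted p = 0.00323), a difference that fell to 0.15 and lost its call with library totals (adjusted p = 0.0972), as it did with limma on FPKM. Macrophage markers fell as given above (14 of 15), and whether that bears on the fall of Tnf was not tested.

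A STAT motif was looked for because IL-4 acts through STAT6, which binds inverted TTC and GAA triplets. TTCNNNNGAA, which STAT6 prefers, lay in a promoter of this length in 8.01% of 27025 genes and in 1 of 26 members, Tnfsf13b. TTCNNNGAA lay in a promoter of 9.55% of these genes and of 6 members, Tnfrsf1a, Tnfrsf1b, Tnfrsf9, Tnfrsf18, Tnfrsf19 and Tnfrsf25. Both are their own reverse complement apart from the spacer, so that a match counts for both strands. The stretch of Tnfrsf1b has the motif 181 bases before the start:

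Tnfrsf1b, chr4:145247032-145247061, minus strand: agcgcattcaTTCCCGGAAgagatgctgga

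Such matches describe the sequence and are not binding sites, since no binding was measured.

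RANKL, its receptor RANK and its decoy receptor osteoprotegerin (OPG), the system that drives and restrains osteoclast formation, all fell. Tnfsf11, the gene of RANKL (chr14:78277446-78308043), had expected counts of 95, 88 and 108 in control and 17, 25 and 14 in IL-4 cultures. Tnfrsf11a, the gene of RANK (chr1:105780673-105849444), had 556, 615 and 636 against 222, 248 and 235. For Tnfrsf11b, which encodes OPG (chr15:54250619-54278484), they were 312, 422 and 343 against 155, 160 and 151. No group overlapped with the other in these genes. On the log2 scale Tnfsf11 fell by 2.21 (SE 0.22, adjusted p = 0.000128), Tnfrsf11a by 1.20 (SE 0.09, adjusted p = 2.15e-05) and Tnfrsf11b by 1.05 (SE 0.13, adjusted p = 0.000467). Among all genes tested, 19.0% were higher and 18.4% lower. Of the genes that RANK signalling induces in osteoclasts, 7 were tested, 5 rose and 1 fell, with a median log2 fold change of 1.97. Those that rose were Ocstamp (4.27), Atp6v0d2 (3.67), Acp5 (3.13), Itgb3 (1.97) and Ctsk (1.91), of which Acp5 and Atp6v0d2 are also expressed by macrophages and Ctsk by fibroblasts. Nfatc1, the transcription factor that RANK activates in osteoclast precursors, fell by 0.83 on the log2 scale (SE 0.08, adjusted p = 0.000111), from 1281, 1284 and 1219 to 658, 669 and 588 expected counts.

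**Figure D3:**
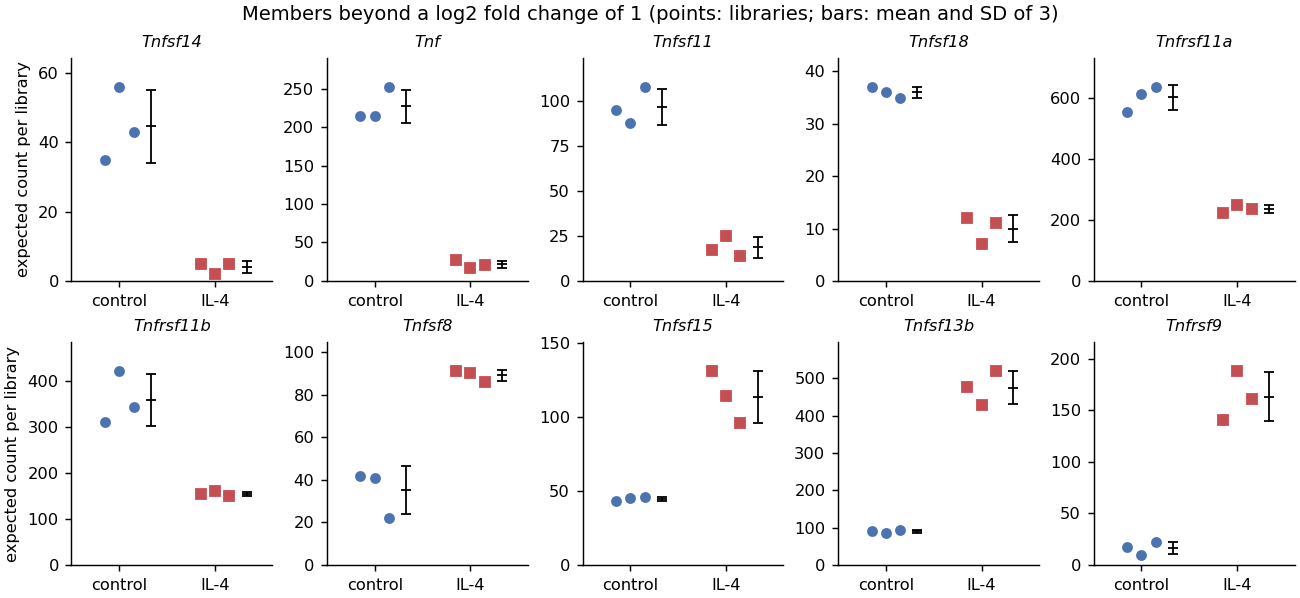
Expected counts per library of the 10 members beyond a log2 fold change of 1, blue circles for control and red squares for IL-4, with the mean and SD of 3 libraries beside them. In each of the 10 genes the groups are apart, from 35 to 56 against 2 to 5 counts in Tnfsf14 to 10 to 22 against 141 to 188 in Tnfrsf9.

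A further 3 ligands, which costimulate T cells, fell. Tnfsf14, the gene of LIGHT (chr17:57189474-57194181), had expected counts of 35, 56 and 43 without and 5, 2 and 5 with IL-4, for a log2 fold change of -3.29 (SE 0.36, adjusted p = 0.000233). Few reads remained with IL-4, so that its interval is wide, from -4.13 to -2.45. Its neighbour Tnfsf9, 81715 bases away on chromosome 17, encodes CD137L and had 310, 299 and 389 against 122, 155 and 189. It fell by 0.95 (SE 0.16, adjusted p = 0.00237). Its span overlaps that of the antisense gene Gm11110. Its expected counts were whole in every library, and whether reads of Gm11110 were counted in it was not tested. Tnfsf18, which encodes GITRL (chr1:161494657-161505290), went from 37, 36 and 35 to 12, 7 and 11 and fell by 1.68 (SE 0.24, adjusted p = 0.000949). HVEM, a receptor of LIGHT, and GITR, the receptor of GITRL, did not pass. Tnfrsf14, which encodes HVEM, had 2.80 and 2.72 FPKM (fitted log2 fold change 0.13, adjusted p = 0.694). Tnfrsf18, which encodes GITR and overlaps the antisense gene Gm16008, had 0.67 and 0.76 FPKM (fitted log2 fold change 0.35, adjusted p = 0.321).

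Tnfrsf9, which encodes CD137, a costimulatory receptor of activated T cells and other leukocytes, rose most. Its expected counts were 17, 10 and 22 without and 141, 188 and 161 with IL-4, and no library of a group came near the other. The log2 fold change was 3.47 (SE 0.24, adjusted p = 1.55e-05), or 11.1-fold, from 0.29 to 2.84 FPKM. One of its annotated promoters, shown because it was the only one of the 26 with 3 of the motifs searched, holds a TTCNNNGAA motif 136 bases, an NF-kappaB motif (GGGNNTTTCC, both strands) 43 bases and an AP-1 motif (TGANTCA, both strands) 15 bases before that start, none overlapping another:

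Tnfrsf9, TTCNNNGAA, chr4:150927853-150927882, plus strand: caacagctgaTTCCAAGAAacccttcagag

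Tnfrsf9, NF-kappaB, chr4:150927946-150927975, plus strand: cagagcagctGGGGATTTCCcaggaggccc

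Tnfrsf9, AP-1, chr4:150927969-150927998, plus strand: gaggccctgctcagtTGAGTCAcaggtcct

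The NF-kappaB motif was found for 2 of 26 members and 1.90% of all genes with a promoter, and the AP-1 motif for 5 of 26 and 8.97%.

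Tnfsf13b, which encodes BAFF, the survival factor of B cells (chr8:10006229-10036000), had 91, 85 and 94 expected counts without and 477, 429 and 519 with IL-4. Its replicates lay close together and the groups far apart. It rose by 2.55 on the log2 scale (SE 0.10, adjusted p = 9.24e-07), or 5.86-fold. The single TTCNNNNGAA match among the members stands 44 bases before an annotated start of this gene:

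Tnfsf13b, chr8:10006413-10006442, plus strand: ccctttccccTTCCTTAGAAgccatgtggc

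The receptors of BAFF were at low levels. Tnfrsf13b, which encodes TACI and overlaps Usp22 on the other strand, had 14, 24 and 20 expected counts against 9, 3 and 12. Its log2 fold change of -1.11 (SE 0.43) did not pass (adjusted p = 0.0776), although it did without IL-4 replicate 6 (-1.49, adjusted p = 0.0294) and with library totals or limma. Tnfrsf13c, the BAFF receptor, and Tnfrsf17, which encodes BCMA, were not tested, with at most 3 and 5 reads in a library.

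A pair of neighbouring ligand genes 86142 bases apart on chromosome 4 rose. Tnfsf15, which encodes TL1A, a ligand of DR3, went from 43, 45 and 46 to 131, 114 and 96 expected counts, a log2 fold change of 1.50 (SE 0.17, adjusted p = 0.000239). Tnfsf8, which encodes CD30L, went from 42, 41 and 22 to 91, 90 and 86, also 1.50 (SE 0.23, adjusted p = 0.00134). Control replicate 3 was the lowest of the controls for Tnfsf8. Their receptors were scarce. Tnfrsf25, which encodes DR3, had 18, 14 and 18 against 8, 13 and 6 counts and did not pass (adjusted p = 0.131), although limma on FPKM called it lower. Tnfrsf8, which encodes CD30, had 1 read in each control and 5, 14 and 8 with IL-4, a ratio of 10.01 with an exact 95% counting interval of 3.08 to 51.6 that leaves out the spread between replicates. It was removed by the filter on low counts, and without that filter its adjusted p was 0.00731.

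TWEAK and APRIL share exons with a readthrough gene, so that reads were divided among the 3 and their values are uncertain. Tnfsf12, which encodes TWEAK, a ligand that acts on Fn14 in fibroblasts and fat precursors, had 1205, 1111 and 1292 expected counts against 1214, 1233 and 1608. The groups overlapped in expected counts, and the log2 fold change of 0.32 (SE 0.11, adjusted p = 0.0455) kept its call in only 5 of 14 alternatives. Among the fits that lost it were those without control replicates 1, 2 or 3 or IL-4 replicate 5 (0.27 to 0.38, adjusted p = 0.051 to 0.152). Over all 14 alternatives its adjusted p reached 0.426. Tnfsfm13, the readthrough of both genes, went from 180, 215 and 180 to 280, 233 and 297 and rose by 0.65 (SE 0.12, adjusted p = 0.00435). Tnfsf13, which encodes APRIL, was at 104 ± 19.1 and 102 ± 18.6 normalized counts (adjusted p = 0.914). The receptor of TWEAK, Tnfrsf12a, had 51.1 and 43.1 FPKM and did not pass (log2 fold change -0.07, interval -0.39 to 0.25). It was called lower without IL-4 replicate 6 alone (-0.24, adjusted p = 0.0321). Its span overlaps that of the antisense gene Hcfc1r1. Its expected counts were whole in every library, and whether reads of Hcfc1r1 were counted in it was not tested.

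Among the TRAIL receptors, the death receptor was lower and a decoy receptor higher, the latter under some scalings only. Tnfrsf10b, the death receptor of TRAIL in mice, had 990, 950 and 878 expected counts against 667, 621 and 598, and fell by 0.42 (SE 0.08, adjusted p = 0.0047). Tnfrsf23, a TRAIL decoy receptor, had 1520, 1482 and 1541 against 1693, 1679 and 1682, a log2 fold change of 0.31 (SE 0.05, adjusted p = 0.00264) that lost its call with library totals (0.14, adjusted p = 0.0698). Tnfrsf22, 16131 bases from it on chromosome 7, and Tnfrsf26, 6962 bases beyond Tnfrsf22, did not pass. Tnfrsf22 was at 6.41 and 5.35 FPKM (fitted log2 fold change -0.09, adjusted p = 0.607). Tnfrsf26 was at 7.07 and 6.72 FPKM (fitted log2 fold change 0.10, adjusted p = 0.335). Reads of Tnfrsf22 and Tnfrsf23, near copies of each other, were partly divided between them. The ligand itself, Tnfsf10, was near 0.1 FPKM in both groups, with 10 to 18 expected counts in the 6 libraries. Tnfrsf21, which encodes DR6, another death domain receptor, had 341, 410 and 421 against 236, 252 and 250, and fell by 0.51 (SE 0.10, adjusted p = 0.00501).

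The remaining members were near the limit of detection. Tnfrsf4, which encodes OX40 and overlaps Sdf4 on the same strand, had 12 to 17 expected counts without and 14 to 22 with IL-4 (adjusted p = 0.362). Its ligand Tnfsf4 had at most 5 reads in a library and was not tested. Tnfrsf19, which encodes TROY, had at most 13 reads, with 3, 2 and 7 against 13, 8 and 9, and without the filter its adjusted p was 0.0671.

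The balance within 4 receptor and ligand pairs, and between TNFR2 and TNFR1, was compared as the ratio of FPKM in each library. With 3 libraries against 3, the smallest p of the two-sided exact permutation test over 20 splits is 0.1, so that no ratio could pass 0.05. The OPG to RANKL ratio was 2.59, 3.78 and 2.51 in control and 7.22, 5.02 and 8.59 in IL-4 cultures, 2.33-fold higher on average, since RANKL fell more than OPG. CD137 to CD137L went from 0.03, 0.02 and 0.03 to 0.68, 0.71 and 0.50, and TNFR2 to TNFR1 from 0.17, 0.18 and 0.17 to 0.25, 0.25 and 0.22. Fn14 to TWEAK was 1.83, 2.04 and 2.06 against 1.42, 1.49 and 1.58. In these 4 pairs the groups did not overlap (exact permutation p = 0.1, adjusted p = 0.125 over the 5 ratios). The Tnfrsf10b to Tnfsf10 ratio overlapped, at 75.2 to 138 against 62.2 to 105 (exact permutation p = 0.2, adjusted p = 0.2).

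**Figure D4:**
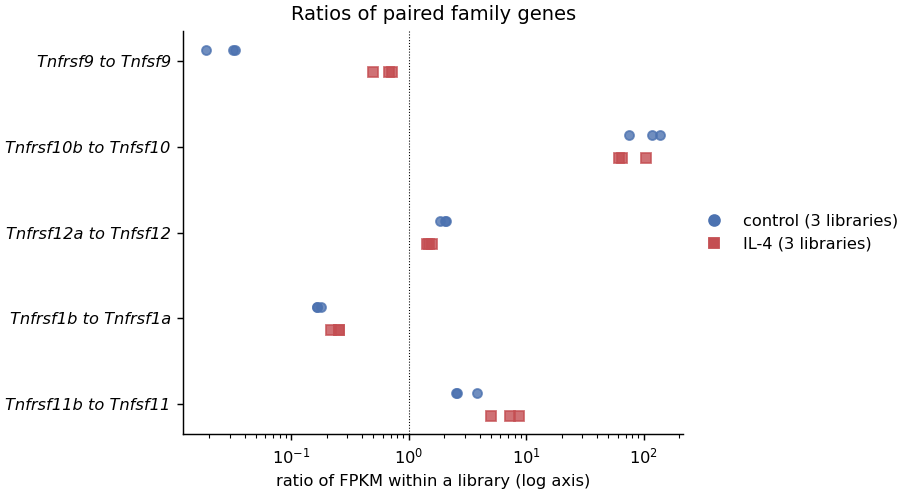
Ratio of FPKM of 5 pairs of family genes in each library on a log axis, blue circles for control and red squares for IL-4, with a dotted line at equal levels. CD137 to CD137L differs most, 0.02 to 0.03 against 0.50 to 0.71, and only the Tnfrsf10b to Tnfsf10 ratios overlap between groups.

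Members of the superfamily with other symbols moved in both directions as well. Of 14 such genes, 7 were tested, and the median log2 fold change was -0.05. Cd40, the receptor of CD40L, went from 103, 107 and 149 to 198, 189 and 245 expected counts (0.97, adjusted p = 0.00209), and Ltbr, the lymphotoxin beta receptor, to which LIGHT also binds, rose by 0.41 (adjusted p = 0.00111). Ngfr, the low-affinity neurotrophin receptor, fell by 0.77 (adjusted p = 3.32e-05) and Relt by 0.84 (adjusted p = 0.00056). Fas had 5.70 and 4.01 FPKM and did not pass (adjusted p = 0.06). No read of Cd40lg or Cd70 was listed in any library, which does not exclude a level too low to be counted.

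Downstream of the receptors, 1 adaptor or proximal kinase changed beyond a log2 fold change of 1. Among all genes tested in edgeR, 19.0% were higher and 18.4% lower. Of the 29 tested in this list, 8 were lower and 21 did not pass in edgeR, with a median log2 fold change of -0.08. With library totals 16 of the 29 were lower. The number of higher genes in this list was 0 in edgeR, 1 at an unadjusted p under 0.05, 1 by DESeq2 and 0 by limma. Traf1, an adaptor that NF-kappaB induces, changed most, from 62, 42 and 72 to 11, 14 and 12 expected counts (log2 fold change -2.08, SE 0.27, adjusted p = 0.000548). Among 10 brakes on TNF signalling, Tnip3, which binds the deubiquitinase A20, rose by 1.09 (adjusted p = 0.000892), Zfp36l1, an mRNA decay factor, by 0.70, Zc3h12a, an RNase, by 0.64 and Tnip2 by 0.32, the last a call kept in 8 of 14 alternatives. Zfp36, which speeds the decay of Tnf mRNA, was lower (-0.35, adjusted p = 0.0437), a call also kept in 8. Of 5 genes of TNF shedding, Timp3, the inhibitor of the TNF-releasing protease ADAM17, fell by 1.03 (adjusted p = 0.000101) from 447 to 194 FPKM, and Rhbdf2, which carries ADAM17 to the cell surface, rose by 0.41 (adjusted p = 0.00237). Adam17 itself had 26.7 and 26.1 FPKM, and its fitted log2 fold change of 0.14 did not pass (adjusted p = 0.215).

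Genes that TNF induces in fibroblasts moved in both directions. Of 24 tested, 12 rose, 5 fell and 7 did not pass, with a median log2 fold change of 0.23. Over all genes tested, 19.0% were higher and 18.4% lower. Complement C3 rose from 1174, 1292 and 1319 to 15459, 14667 and 12859 expected counts (3.66, adjusted p = 1.87e-07), Nos2 from 22, 11 and 12 to 128, 178 and 163 (3.52, adjusted p = 2.02e-05) and Tnfaip6 from 65, 88 and 84 to 696, 635 and 859 (3.36, adjusted p = 1.52e-06). Smaller rises were those of the chemokine Ccl7 (1.57, adjusted p = 3.99e-05) and the adhesion molecule Vcam1 (1.17, adjusted p = 3.33e-06). Cxcl10, a chemokine that interferons also induce, went from 60, 86 and 121 to 16, 11 and 30 (-2.07, adjusted p = 0.00312). Without IL-4 replicate 6, 8 genes of this list were lower in place of 5.

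**Figure D5:**
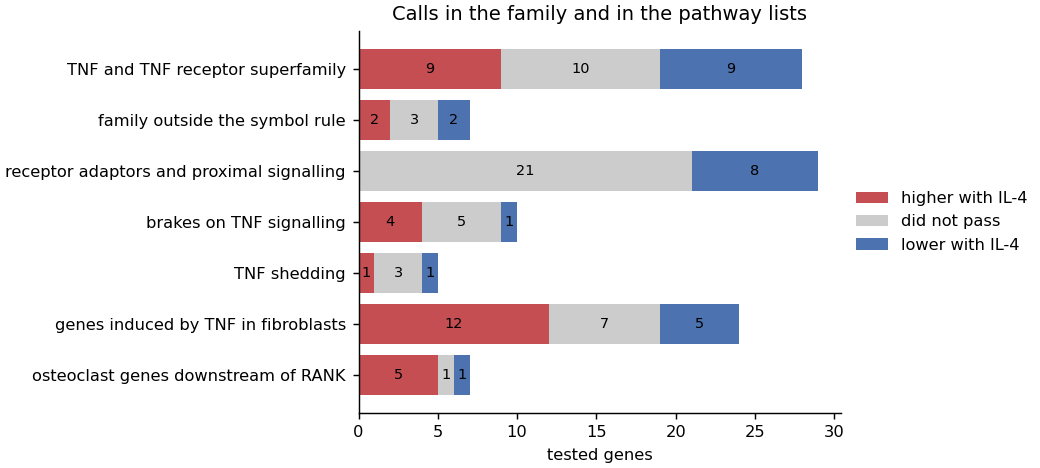
Number of tested genes that were higher with IL-4 (red), did not pass (grey) or were lower (blue) at an adjusted p under 0.05, for the family and 6 lists of related genes. The family has 9, 10 and 9, the adaptors 0, 21 and 8, and the genes induced by TNF 12, 7 and 5. Over all genes tested, 19.0% were higher and 18.4% lower.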

How the data were processed

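Poly(A) RNA from 3 control and 3 IL-4 libraries was sequenced on BGISEQ-500. With Bowtie2 and RSEM the authors obtained expected counts (not normalized) and FPKM (scaled by them for length and depth). The submitters' processing notes also name HISAT, StringTie and mm10. Strand is not given in the sources used here. Genes not listed in a library were taken as 0. One row without a gene name (at most 0.000225% of counts) was left out, and 4 small RNA libraries of the 10 in the series were not used here.

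Of the expected counts, 87.0% were whole, and 7 members had fractional counts in all libraries. After rounding, genes were kept by filterByExpr at a minimum count of 10 and a minimum total of 15, and counts were scaled by TMM and tested with edgeR 4.0.16 under R 4.3.3, and p-values were adjusted over 14009 genes. The study used DESeq2, an alternative here. Normalized counts are counts divided by the TMM-scaled library size, times the mean of those sizes. Intervals are 95%, and counting intervals cover counting error only. The test was tried on simulated data. The alternatives were DESeq2 1.42.0, upper-quartile scaling, library totals, no filter, unrounded counts, limma 3.58.1 on log2(FPKM + 1) or log2(FPKM + 0.1), and each library left out. Ratios used scipy 1.17.1 under Python 3.11.15.

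The members, the lists and the tests were chosen with earlier results of these data known. All members are reported. From other lists, genes past an adjusted p of 0.05 and a log2 fold change of 1 are named, at most 6 a list. Other genes of these lists were named after their values were seen. Promoters are from RefSeq (GRCm38.p6, the same assembly as mm10), with an entry for 26 of 33 members.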

Additional observations from a re-analysis of the deposited data

How the results depend on the processing

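No paired analysis was possible because the control libraries are numbered 1 to 3 and the IL-4 libraries 4 to 6, so that no number is shared. With limma on log2(FPKM + 1), with or without a filter, 2 members were upregulated and 1 downregulated in place of 4 and 6, since the pseudocount shrinks the changes of low genes. Adaptors lower numbered 8, and 16 with library totals and the 3 limma fits (5 to 9 with a library left out). Adaptors higher numbered 1 with DESeq2 (0 to 2 with a library left out). Brakes lower numbered 1, 0 with upper-quartile scaling and 2 with library totals and limma (0 to 2 with a library left out). Genes induced by TNF that were lower numbered 5, 8 with library totals and 9 with limma (4 to 8 with a library left out, 8 without IL-4 replicate 6), and shedding genes that were higher 1 (1 to 3 with a library left out, 3 without IL-4 replicate 6). Without control replicate 2, 5 adaptors were lower.

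Members that did not pass changed sign in places. Tnfsf10 was at -0.12 with library totals and -0.0087 with limma without a filter, Tnfrsf26 at -0.0735 with library totals and at -0.0664, -0.0751 and -0.0664 with limma at pseudocounts of 1 and 0.1 and without a filter, and Tnfrsf14 at -0.0403, -0.0524, -0.0797 and -0.0524 in the same order. With a library left out the ranges of log2 fold change were -0.10 to 0.24 for Tnfsf10, -0.0427 to 0.37 for Tnfrsf14, -0.20 to 0.0262 for Tnfrsf22, -0.24 to 0.0365 for Tnfrsf12a and -0.17 to 0.12 for Tnfsf13. The cause was not tested. Members with under about 20 reads a library have wide intervals, so that a change of the size seen in Tnfrsf1b could be missed in them.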
